A study of Mus musculus with 6 samples.

Results

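The 10 genes described here carry glucose into the cell and control the step at which it is committed to glycolysis. They were chosen by symbol from the 15803 genes of the table, and all 10 had a row and were measured. They are the glucose transporter gene Slc2a1, the hexokinase genes Hk1 and Hk2, the phosphofructokinase subunit genes Pfkl, Pfkm and Pfkp, and the genes of the bifunctional enzymes Pfkfb1, Pfkfb2, Pfkfb3 and Pfkfb4. Poly(A) RNA of growth plate cartilage of mouse embryos at E18.5 was sequenced as 6 libraries, 3 labelled CKO from Col2a1-Cre;Hnrnpk fl/fl embryos and 3 labelled WT from Hnrnpk fl/fl embryos. Both groups therefore carried the floxed Hnrnpk alleles, and the WT group differed by lacking Cre. Cre was driven by Col2a1 and so was made in chondrocytes, embryos of both sexes were used, and neither the labels nor the methods say whether a library held 1 embryo, so the p-values measure only the spread between these libraries.

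Glucose enters chondrocytes through Glut1, the product of Slc2a1, and is trapped in the cell by hexokinase, which adds a phosphate. Phosphofructokinase then makes the committed step of glycolysis as a tetramer of liver-type (Pfkl), muscle-type (Pfkm) and platelet-type (Pfkp) subunits. The Pfkfb enzymes make and degrade a fructose bisphosphate that activates phosphofructokinase, and Pfkfb3 is the isozyme whose kinase activity outweighs its phosphatase activity most. The growth plate is avascular, its chondrocytes depend on glycolysis, and Slc2a1, the hexokinase genes and the Pfkfb genes are known targets of the hypoxia-inducible factor Hif-1. The comparison of CKO with WT asks whether these genes changed in cartilage in which Cre deletes Hnrnpk, since the study concerned the control of glycolysis by Hnrnpk.

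For the same reason, the sequences upstream of the members were searched for the core of the Hif-1 response element. Windows from 250 bases before to 50 bases after each annotated start were taken from RefSeq on GRCm38.p6, which gave 20 windows for the 10 members. The letters ACGTG or GCGTG were found on either strand in 15 of the 20 windows (75.0%) against 43.8% of all 32851 windows. Counted by gene, each of the 10 members held a match in at least 1 window, against 46.7% of all 27025 genes. The members have more windows per gene, and some of these overlap, so that 1 site of Pfkm counts in 2 windows. The background was not limited to the genes of the table or matched for base composition, so these shares do not measure an enrichment. Matches before a RefSeq start of 6 members are printed below 5′ to 3′ on the strand of the gene, with the match, or its reverse complement, in capitals. They are examples and not all matches. The members not printed, Hk1, Pfkp, Pfkfb1 and Pfkfb2, also had matches before a RefSeq start. Pfkm has further RefSeq starts, and its printed match lies before the most upstream, at 98092589. The RefSeq starts of Slc2a1, Pfkl, Pfkfb3 and Pfkfb4 lie inside the wider GENCODE bounds given for these genes further on, so their matches lie within those bounds or, for Slc2a1, across the edge of them.
Slc2a1, 36 bases before the start, chr4:119108697-119108726, plus strand: gtcccgccccggACGTGctccccaggcccc
Hk2, 52 bases before the start, chr6:82774489-82774518, minus strand: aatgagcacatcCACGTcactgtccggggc
Pfkl, 99 bases before the start, chr10:78009889-78009918, minus strand: atttgtagactgGCGTGcgctccgcctttc
Pfkm, 135 bases before the start, chr15:98092442-98092471, plus strand: attaagtatgccACGTGaagtaagtaattt
Pfkfb3, 60 bases before the first start, chr2:11553972-11554001, minus strand: ctccgcgccgtgACGTGccaagctgtgacc
Pfkfb3, 52 bases before the other start, chr2:11502125-11502154, minus strand: acccttctctccACGTGaaagggggctggg
Pfkfb4, 117 bases before the start, chr9:108991773-108991802, plus strand: ttgacggatgggGCGTGcttagtccaaaag
The match of Pfkm and the second match of Pfkfb3 lie in the palindrome CACGTG, which other factors also bind and which is read as ACGTG on both strands. A match describes these letters only, and binding of Hif-1 was not measured in these libraries.

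The values are CPM, reads on a gene scaled to the same total in each library, and rest on 1153871 to 1454094 reads per library, at which 3 reads in a library, the floor of detection used here, stood at 2.06 to 2.60 CPM. Of the 12155 genes that averaged 1 CPM or more, 5.78% passed limma's adjusted p of 0.05 (3.18% higher and 2.60% lower in CKO). The chondrocyte markers were abundant, with a summed level of 15701 to 20914 CPM in WT and 3961 to 5042 CPM in CKO, and 6 of 8 fell past that threshold. The hypertrophic markers summed to 1470 to 4594 CPM in WT and to 12392 to 15211 CPM in CKO, mostly Spp1 (11114 to 12045 CPM in CKO), the 1 of 6 tested that was called. Of the 6 tested, 5 had a positive and 1 a negative log2 fold change, with a median of 1.05. At an unadjusted p under 0.05, 3 were higher and 0 lower, where 21.3% of all genes passed. Mmp13 had 257, 260 and 650 CPM in the WT libraries and 2155, 377 and 2301 CPM in the CKO libraries. It was not called (log2 fold change 1.81, limma's adjusted p = 0.118). Col10a1 (log2 fold change 0.33, limma's adjusted p = 0.738) and Alpl (0.06, limma's adjusted p = 0.965) were also not called, and Ihh stood at 0 to 1.69 CPM. Markers of endothelium stayed at or below 4.33 CPM in sum. Hnrnpk itself did not separate the libraries (log2 fold change -0.14, limma's adjusted p = 0.622), and directions therefore rest on the labels. Its counts cover the whole gene, including exons outside the floxed part. The library labelled CKO 2 stood apart, with a median absolute distance of 0.453 (log2) from the mean of the other CKO libraries, against 0.305 to 0.395 for the remaining libraries.

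None of the 10 members passed limma's adjusted threshold between the genotypes. With limma on log2(CPM + 1), 0 of 10 had an adjusted p under 0.05 (range 0.290 to 0.901), where 5.78% of all genes did, and 0 had an unadjusted p under 0.05, where 21.3% did. The criterion of a log2 fold change beyond 1 with an unadjusted p under 0.05 was met by 0 members and by 10.4% of all genes. The edgeR quasi-likelihood test called 0 of the 5 members that passed its filter and 0 of 10 without a filter, and DESeq2 called 0 of the 7 members to which it gave an adjusted p, and neither tool gave a member an unadjusted p under 0.05. By sign, 4 members had a positive and 6 a negative log2 fold change, with a median of -0.11 against 0.013 over all genes tested. WT and CKO libraries were fully separated for 2 members, Pfkm and Pfkfb3, both lower in CKO, where 27.7% of all genes were (13.2% with CKO lower). In bulk cartilage a smaller number of cells of a type and less RNA per cell cannot be told apart.

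**Figure D1:**
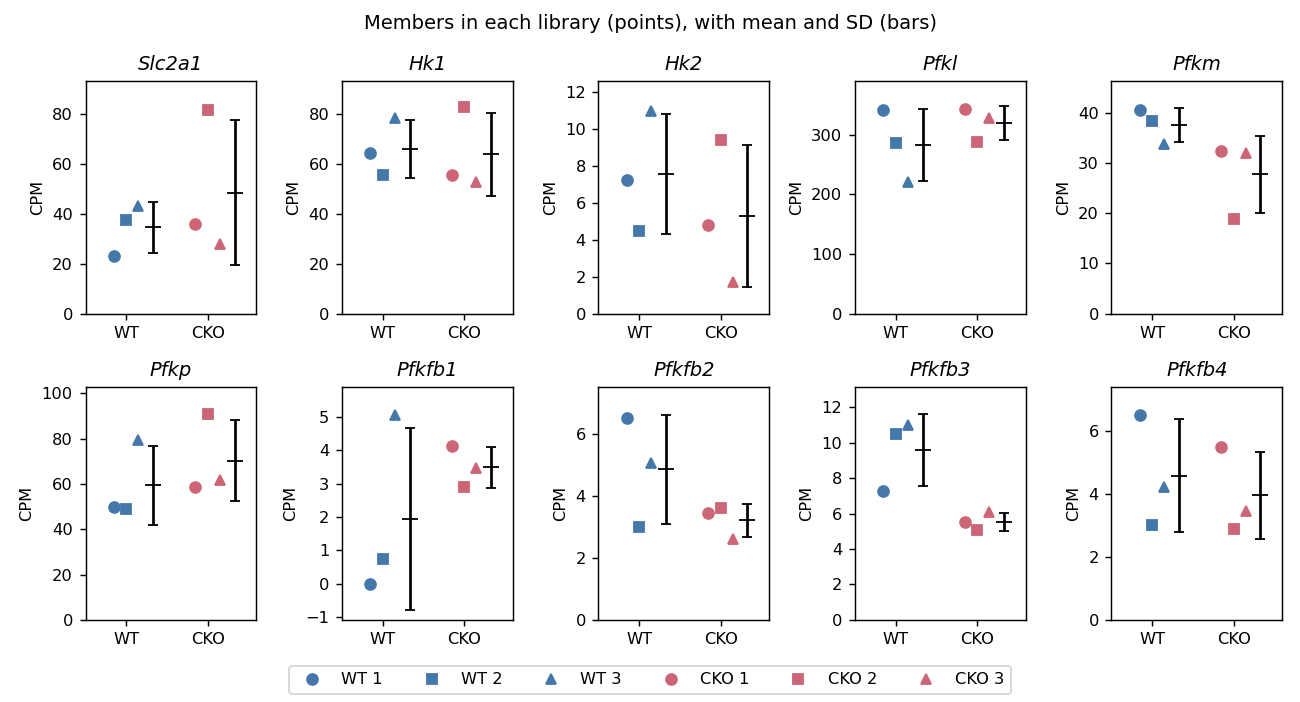
Level of each of the 10 members in CPM (y axis, linear, a scale for each gene) in the 3 WT and the 3 CKO libraries, with symbols for the replicate numbers. Bars give the mean and SD of 3 libraries. Only Pfkm and Pfkfb3 have all CKO points below all WT points, and CKO 2 lies far above the other CKO points for Slc2a1 (81.6 CPM).

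Slc2a1 (ENSMUSG00000028645; GRCm38 chromosome 4, 119108711 to 119137983, plus strand) encodes the main glucose transporter of chondrocytes, and the match printed first above lies before its RefSeq start at 119108745. In the order of the replicate numbers, which holds for all such values here, it had 23.2, 37.5 and 43.1 CPM in the WT libraries and 35.8, 81.6 and 27.7 CPM in the CKO libraries. CKO 2 was the highest of all libraries, whereas CKO 1 and CKO 3 lay within the WT range. The means were 34.6 ± 10.3 CPM for WT and 48.4 ± 29.04 CPM for CKO (SD, n = 3 each). CKO exceeded WT by a log2 fold change of 0.36 (standard error, SE, 0.38, 95% interval -0.49 to 1.21, limma's adjusted p = 0.635), an interval that holds folds from 0.714 to 2.31. Without CKO 2 the log2 fold change was -0.09 (limma's adjusted p = 0.884). CKO 2 also held 28.9 CPM of summed erythroid markers, nearly all of it Hba-a2 at 28.1 CPM, against 0.725 to 6.07 CPM in the other libraries. The part of erythroid cells in the Slc2a1 level of CKO 2 was not tested.

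Hexokinase was represented mainly by Hk1 (ENSMUSG00000037012; chromosome 10, 62268855 to 62379908, minus strand), the widely expressed isozyme. Hk1 had 64.5, 55.5 and 78.6 CPM in the WT libraries and 55.7, 83.0 and 52.9 CPM in the CKO libraries. The ranges overlapped broadly, and the log2 fold change was -0.07 (SE 0.23, 95% interval -0.58 to 0.44, limma's adjusted p = 0.901). The interval holds folds from 0.670 to 1.36. Hk2 (ENSMUSG00000000628; chromosome 6, 82725025 to 82774454, minus strand), the isozyme that is inducible by hypoxia and abundant in muscle, had 7.25, 4.50 and 11.0 CPM in the WT libraries and 4.81, 9.38 and 1.73 CPM in the CKO libraries. These levels rest on 29 reads in all WT and 22 reads in all CKO libraries, with CKO 3 at the floor on 2 reads. The log2 fold change of Hk2 was -0.57 (SE 0.53, limma's adjusted p = 0.583), and it ran from -1.03 to -0.07 with each library left out in turn. Per kb of merged exons, Hk2 made up 13.6% ± 3.14 (SD, n = 3) of the hexokinase signal in WT and 9.79% ± 4.83 (SD, n = 3) in CKO, with overlapping libraries (exact two-sided permutation p = 0.5). Per kb of the longest coding transcript these shares were 7.91% and 5.61%.

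The phosphofructokinase subunit gene Pfkl had the highest level of the 10 members in every library. Pfkl (ENSMUSG00000020277; chromosome 10, 77986947 to 78010083, minus strand) had 342, 287 and 220.5 CPM in the WT libraries and 343, 288 and 328 CPM in the CKO libraries. WT 3 was the lowest library, and the other WT libraries lay within the CKO range or just below it. The log2 fold change was 0.19 (SE 0.18, 95% interval -0.21 to 0.60, limma's adjusted p = 0.593), with an upper end at a fold of 1.52. Without WT 3 the log2 fold change was 0.03, and without WT 1 it was 0.34. Pfkp (ENSMUSG00000021196; chromosome 13, 6579768 to 6648777, minus strand) had 50.0, 48.8 and 79.4 CPM in the WT libraries and 58.5, 90.9 and 61.5 CPM in the CKO libraries. WT 3 and CKO 2 were the high libraries of their genotypes, and the log2 fold change was 0.25 (SE 0.25, limma's adjusted p = 0.623). Without CKO 2 it was 0.05, and without WT 3 it was 0.47. The exons of Pfkp overlap those of Pitrm1 on the opposite strand over 748 bases.

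Pfkm, the subunit gene that dominates in skeletal muscle, was lower in each CKO library than in each WT library. Pfkm (ENSMUSG00000033065; chromosome 15, 98092589 to 98132451, plus strand) had 40.6, 38.3 and 33.8 CPM in the WT libraries and 32.3, 18.8 and 32.1 CPM in the CKO libraries. The gap between the genotypes was small, from 33.8 CPM in WT 3 to 32.3 CPM in CKO 1, and CKO 2 carried most of the difference. The means were 37.6 ± 3.46 CPM (SD, n = 3) and 27.7 ± 7.75 CPM (SD, n = 3), a log2 fold change of -0.46 (SE 0.26, 95% interval -1.04 to 0.12, limma's adjusted p = 0.341). Without CKO 2 it was -0.21 (limma's adjusted p = 0.576). Summed markers of skeletal muscle were at 45.0 to 188 CPM in WT and at 103 to 113 CPM in CKO, so that the CKO libraries lay within the WT range, and Myh3 and Myh8 stood at 0 to 2.53 CPM. The exons of Pfkm overlap those of Gm26513 on the same strand over 341 bases, where reads could be counted for either gene.

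Within the subunit family, the share of Pfkm was lower and that of Pfkl higher in each CKO library. The share of each subunit was taken per library on CPM per kb of merged exon length and so does not depend on the scaling between libraries. The Pfkm share was 18.1%, 19.7% and 20.6% in WT and 14.8%, 10.1% and 15.1% in CKO. Every CKO library lay below every WT library, a mean of 19.5% ± 1.28 (SD, n = 3) against 13.3% ± 2.81 (SD, n = 3), with p = 0.1 by exact permutation, two-sided, which no comparison of 3 with 3 libraries can go below (adjusted over 8 shares, p = 0.267). This order of the libraries was also seen on plain CPM (9.92% against 6.59%) and per kb of the longest coding transcript (12.7% against 8.50%). The difference of -6.14 percentage points ran from -7.04 to -4.52 when single libraries were dropped. The Pfkl share was 76.3%, 74.0% and 67.3% in WT and 78.5%, 77.7% and 77.6% in CKO, again without overlap (exact two-sided permutation p = 0.1), but its libraries overlapped on plain CPM and per kb of the longest coding transcript. The Pfkp share was 7.97% ± 3.57 (SD, n = 3) in WT and 8.71% ± 3.05 (SD, n = 3) in CKO and overlapped. It depends on the length used, with 14.4% and 15.3% per kb of the longest coding transcript and 16.1% and 17.0% on plain CPM, and on both of these scales its mean share exceeded that of Pfkm. These shares were seen after the separation of Pfkm was known and restate it on a second scale.

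**Figure D2:**
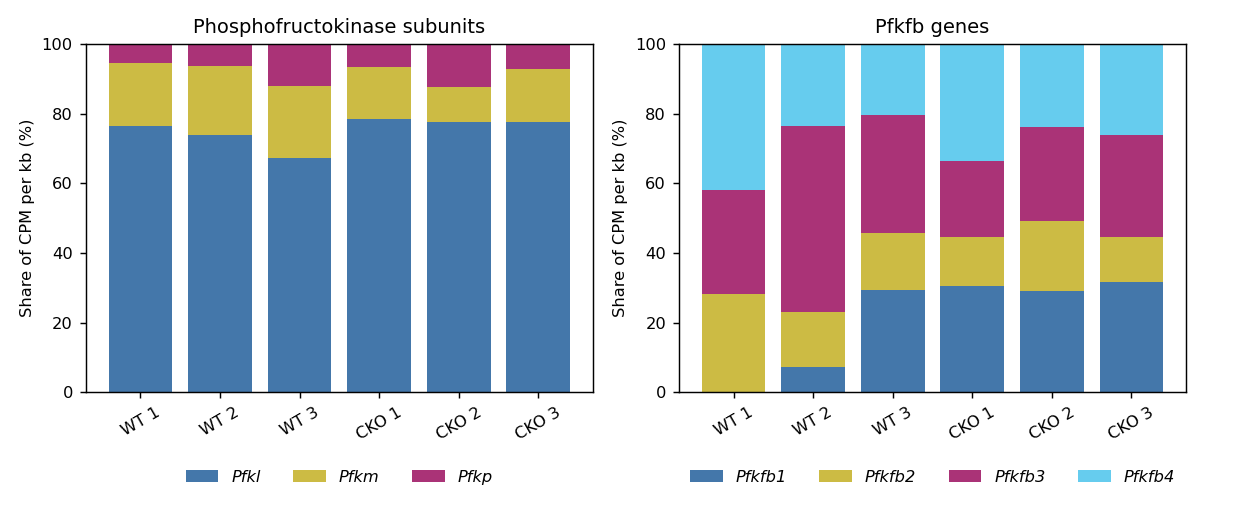
Share of each gene (y axis, percent of the summed CPM per kb of merged exon length) in the phosphofructokinase subunits (left) and the Pfkfb genes (right), 1 bar for each library. The Pfkm band is 18.1% to 20.6% in WT and 10.1% to 15.1% in CKO, and the Pfkfb1 band is 0% in WT 1 and 31.6% in CKO 3.

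The Pfkfb genes were expressed at a low level, and Pfkfb3 was the one whose libraries separated. Pfkfb3 (ENSMUSG00000026773; chromosome 2, 11471433 to 11554077, minus strand) had 7.25, 10.5 and 11.0 CPM in the WT libraries and 5.50, 5.05 and 6.07 CPM in the CKO libraries. Each CKO library was lower than each WT library, in the direction of less Pfkfb3 mRNA in CKO. The reads behind these values were 10, 14 and 13 in WT and 8, 7 and 7 in CKO. The means were 9.58 ± 2.03 CPM (SD, n = 3) and 5.54 ± 0.508 CPM (SD, n = 3), and the log2 fold change was -0.68 (SE 0.34, 95% interval -1.44 to 0.08, limma's adjusted p = 0.290). It stayed negative in all 13 alternatives that covered the gene, from -0.85 to -0.52, and none of these called it. The pooled reads gave a ratio of CKO to WT of 0.580, with an exact 95% interval of 0.326 to 1.01 that covers counting error only. The limma interval ends at a fold of 1.06 on the log2(CPM + 1) scale, which understates folds at so few reads. DESeq2 gave a log2 fold change of -0.82 with an unadjusted p of 0.219, so this end depends on the fit. No other annotated gene overlapped the exons of Pfkfb3 and no near-identical copy of it was found.

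Pfkfb1 (ENSMUSG00000025271; chromosome X, 150588229 to 150643878, plus strand), the liver and muscle isozyme, had 0, 0.750 and 5.07 CPM in the WT libraries and 4.13, 2.89 and 3.47 CPM in the CKO libraries. WT 1 and WT 2 were at the floor, with 0 and 1 read, while WT 3 with 6 reads was the highest of all libraries. The log2 fold change of 1.02 (SE 0.64, 95% interval -0.40 to 2.44, limma's adjusted p = 0.392) thus had the largest standard error of the members. Without WT 3 it was 1.75 (limma's adjusted p = 0.104), and without WT 1 it was 0.45. Pfkfb2 (ENSMUSG00000026409; chromosome 1, 130689182 to 130729253, minus strand), the heart isozyme, had 6.52, 3.002 and 5.07 CPM in the WT libraries and 3.44, 3.61 and 2.60 CPM in the CKO libraries, on 19 and 13 reads. WT 2 lay within the CKO range (log2 fold change -0.44, SE 0.42, limma's adjusted p = 0.597). Its exons share 1262 bases with Gm29427 on the same strand, which is also a near-identical copy, so its reads are uncertain. Pfkfb4 (ENSMUSG00000025648; chromosome 9, 108991778 to 109032228, plus strand), known for induction by hypoxia, had 6.52, 3.002 and 4.22 CPM in the WT libraries and 5.50, 2.89 and 3.47 CPM in the CKO libraries. The libraries overlapped (log2 fold change -0.16, SE 0.43, limma's adjusted p = 0.870).

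Among the Pfkfb genes, the share of Pfkfb3 was 29.99%, 53.3% and 33.9% in WT and 21.7%, 27.0% and 29.3% in CKO. These did not overlap (exact two-sided permutation p = 0.1), though they did on plain CPM, where the means were 46.6% and 34.5%. The share of Pfkfb1 was 12.2% ± 15.4 (SD, n = 3) in WT and 30.4% ± 1.28 (SD, n = 3) in CKO, and WT 3 at 29.5% lay among the CKO libraries. On plain CPM these did not overlap (8.12% against 21.5%). The summed Pfkfb level was 20.97 ± 4.08 CPM for WT and 16.2 ± 2.13 CPM for CKO (SD, n = 3 each, exact two-sided permutation p = 0.2). The summed phosphofructokinase subunits stood at 380.0 ± 49.8 CPM (SD, n = 3) and 418 ± 18.5 CPM (SD, n = 3), and the summed hexokinases at 73.8 ± 14.9 CPM (SD, n = 3) and 69.2 ± 20.3 CPM (SD, n = 3), with exact two-sided permutation p = 0.3 and p = 0.8. All 3 totals overlapped between the genotypes, and adjusted over the 3 totals the p-values were 0.45 to 0.80.

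**Figure D3:**
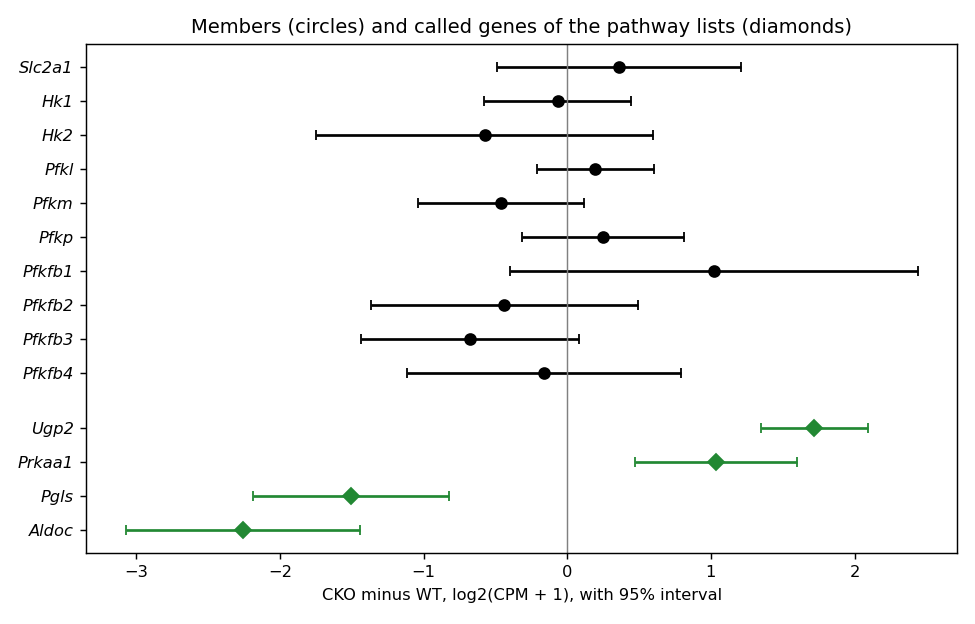
Difference between CKO and WT on the log2(CPM + 1) scale (x axis) with its 95% interval from limma for the 10 members (circles) and for 4 genes of the pathway lists past the adjusted threshold (diamonds). Each interval of a member includes 0, that of Pfkfb3 only just (up to 0.08), and that of Ugp2 lies between 1.35 and 2.09.

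Levels were compared between genes per kb of merged exon length. In WT the order was Pfkl at 42.4, Pfkm at 11.2, Slc2a1 at 9.87, Hk1 at 7.76, Pfkp at 4.43, Hk2 at 1.27, Pfkfb3 at 1.27, Pfkfb4 at 0.940, Pfkfb2 at 0.671 and Pfkfb1 at 0.483 CPM per kb. Pfkl lay above Pfkm, Hk1 above Pfkp and Pfkp above Hk2 without overlap of the WT libraries, and the other neighbours in this order overlapped. In CKO Slc2a1 at 13.8 CPM per kb came before Pfkm at 8.30 CPM per kb, with overlap, and Pfkfb1 came before the other Pfkfb genes at 0.870 CPM per kb. In CKO, Pfkl lay above Slc2a1, Pfkp above Hk2 and Pfkfb3 above Pfkfb2 without overlap. Per kb of the longest coding transcript Pfkl was likewise first in both genotypes, but Hk1 and Pfkp followed it in WT, so the order between Pfkm, Slc2a1, Hk1 and Pfkp depends on the length used.

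Several members varied between libraries of 1 genotype in a shared pattern. For Slc2a1, Hk1, Hk2 and Pfkp, WT 3 was the highest WT library and CKO 2 the highest CKO library. For Pfkl and Pfkm, the same libraries were the lowest of their genotypes. Thus 6 of the 10 members (60%) had WT 3 and CKO 2 at the same extreme, and none of these 6 is a Pfkfb gene. Among all genes tested 33.1% had them at the same extreme, 2283 at the highest and 1736 at the lowest value. In CKO 2 the deviation from the CKO mean was 0.90 for Slc2a1, 0.92 for Hk2, 0.40 for Hk1 and 0.40 for Pfkp on the log2 scale, against -0.50 for Pfkm and -0.15 for Pfkl. With both libraries left out, a choice made after this pattern was seen, the log2 fold change was 0.09 for Slc2a1, -0.14 for Hk1, -0.76 for Hk2, 0.10 for Pfkl, -0.28 for Pfkm and 0.28 for Pfkp. None of these passed limma's adjusted threshold, and 1 member did, Pfkfb1 (limma's adjusted p = 0.0421), which then rested on 0 and 1 read in WT and 6 and 4 reads in CKO. The labels give no batch for these libraries, and what sets WT 3 and CKO 2 apart was not tested.

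**Figure D4:**
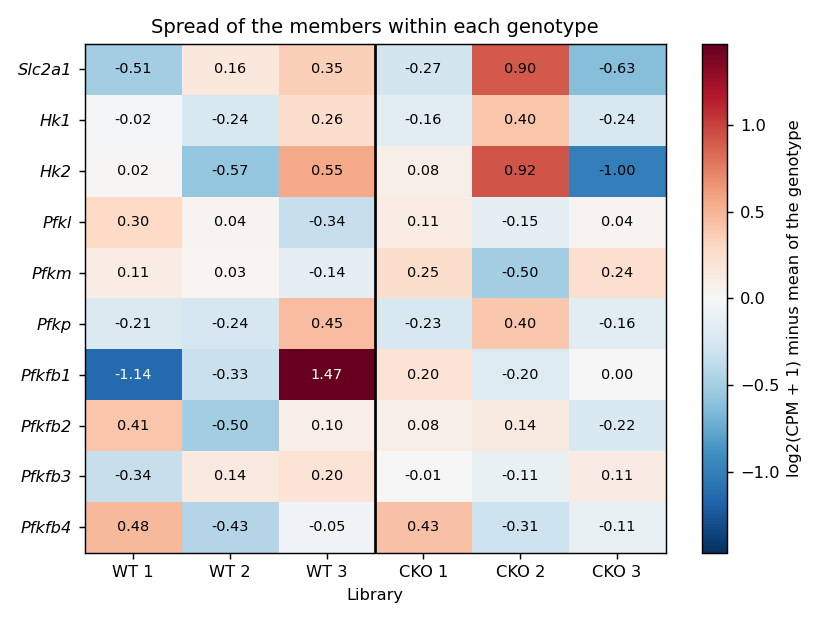
Deviation of each member (rows) in each library (columns) from the mean of its genotype, on the log2(CPM + 1) scale, with red for higher and blue for lower values and the value printed in each cell. Slc2a1, Hk1, Hk2 and Pfkp are red in both WT 3 and CKO 2, and Pfkl and Pfkm are blue in both. Pfkfb2 is also positive in both (0.10 and 0.14) and Pfkfb4 negative in both (-0.05 and -0.31), but WT 3 is not their extreme WT library.

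Among 5022 genes that averaged 20 CPM or more, the genes most like each abundant member in profile were found by the mean absolute difference of centred log2(CPM + 1) over the 6 libraries. Slc2a1 was closest to 4930523C07Rik (0.140), Hirip3 (0.141) and Hspa13 (0.153), where the median gene stood at 0.520. Hk1 was closest to Tex261 (0.057), Racgap1 (0.062) and Tipin (0.071). Pfkp was closest to Mfge8 (0.058), Cd109 (0.060) and Psmd1 (0.075). Pfkl was closest to Krtcap3 (0.040), Ndufa3 (0.045) and Cox5b (0.056), and Pfkm to Ndufa13 (0.051), Tmem203 (0.056) and Hagh (0.057). Ndufa3, Ndufa13 and Cox5b encode subunits of the respiratory chain, and Racgap1 acts in cytokinesis. These profiles share their libraries and depth, and likeness over 6 libraries is a description only.

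Lists of genes around the same steps were read in the same fit. Of the other glucose transporters, 8 of the 11 with a row could be tested, with 4 higher, 4 lower and 0 past limma's adjusted threshold, and 3 had an unadjusted p under 0.05 (Slc2a9, Slc2a5 and Slc50a1, the last 2 named after their values were seen). Their median log2 fold change was 0.13, against 0.013 over all genes. The smallest p belonged to Slc2a9, a urate and hexose carrier, with 0, 0.750 and 0.845 CPM in the WT libraries and 2.75, 2.17 and 5.20 CPM in the CKO libraries, or 2 reads against 13 (limma's adjusted p = 0.117), with every WT library under the floor. Slc2a5, a fructose carrier, had 9.42, 7.504 and 2.53 CPM in the WT libraries and 1.38, 2.89 and 0.867 CPM in the CKO libraries (limma's adjusted p = 0.160). That is 26 reads against 7, with WT 3 at the floor and CKO 1 and CKO 3 under it. Slc50a1 had 204, 247 and 237 CPM in the WT libraries and 200.1, 108 and 182 CPM in the CKO libraries (log2 fold change -0.53, limma's adjusted p = 0.213). Of the other hexose kinases and glucose phosphate enzymes, 5 of 7 were tested, 0 passed limma's adjusted threshold and 0 had an unadjusted p under 0.05. The smallest p was that of Gpi1, the isomerase between hexokinase and phosphofructokinase, with 21.02, 27.0 and 13.5 CPM in the WT libraries and 33.0, 25.3 and 32.1 CPM in the CKO libraries (log2 fold change 0.57, limma's adjusted p = 0.288), and Gm1840 is a near-identical copy of it.

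Of the 12 genes that oppose or regulate these steps, 1 rose past limma's adjusted threshold and 0 fell, where 5.78% of all genes passed. Their median log2 fold change was -0.09. At an unadjusted p under 0.05, 2 passed, both higher, where 21.3% of all genes did. These were Prkaa1 and Prkab1, the latter named after its values were seen. Prkaa1 (ENSMUSG00000050697; chromosome 15, 5143861 to 5181899), which encodes a catalytic subunit of the energy sensor AMPK and so a kinase known to act on Pfkfb enzymes, had 11.6, 12.01 and 15.2 CPM in the WT libraries and 30.3, 26.0 and 26.0 CPM in the CKO libraries. Every CKO library exceeded every WT library, and the log2 fold change was 1.03 (SE 0.25, limma's adjusted p = 0.0421). The call was lost in 4 of the 6 fits that left out a library, without WT 1, WT 2, CKO 1 or CKO 3, up to an adjusted p of 0.159, and also with DESeq2 and with a replicate block. Tigar, a phosphatase that lowers the activator of phosphofructokinase, had 3.62, 2.25 and 5.07 CPM in the WT libraries and 0.688, 2.17 and 0.867 CPM in the CKO libraries (limma's adjusted p = 0.237), and is named after its values were seen. These levels of Tigar rest on 14 reads in WT and 5 in CKO, with every CKO library at or under the floor.

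Of 13 tested enzymes of the branches that leave glycolysis at hexose phosphates, 1 rose and 1 fell past limma's adjusted threshold, where 5.78% of all genes passed. Their median log2 fold change was 0.06. At an unadjusted p under 0.05, 2 were higher and 1 lower, where 21.3% of all genes passed. Ugp2 (ENSMUSG00000001891; chromosome 11, 21321138 to 21371201), which makes UDP-glucose for glycogen and matrix sugars, had 119, 98.3 and 101 CPM in the WT libraries and 367, 299.5 and 390.0 CPM in the CKO libraries. It rose by 1.72 on the log2 scale (SE 0.17, limma's adjusted p = 6.54e-04) and was called in all 16 alternatives. Pgls (ENSMUSG00000031807; chromosome 8, 71592176 to 71601092), an enzyme of the pentose phosphate pathway, had 183, 163 and 174 CPM in the WT libraries and 36.4, 102 and 58.9 CPM in the CKO libraries. Its log2 fold change was -1.50 (SE 0.31, limma's adjusted p = 0.0212), and it was called in only 1 of the 6 fits that left out a library, the one without CKO 2. Of the fits without WT 1, WT 2, WT 3, CKO 1 or CKO 3, the adjusted p reached 0.101. The exons of Pgls share 776 bases with Fam129c on the same strand. Pgd, also of the pentose phosphate pathway and named after its values were seen, differed by 0.88 on the log2 scale (adjusted p = 0.0802 with limma). It was called by DESeq2 (adjusted p = 0.0411) and by edgeR without a filter (adjusted p = 0.0252), a fit added once the data had been seen. With its filter, edgeR did not call Pgd (TMM scaling, adjusted p = 0.0775). Of the 13 tested genes of lower glycolysis, 10 had a positive and 3 a negative log2 fold change, the median being 0.20, and 0 rose and 1 fell past limma's adjusted threshold. Their summed level was higher in each CKO library, at 14629 to 18780 CPM against 11307 to 13251 CPM in WT. The largest parts were Eno1 (2971 to 3778 CPM in WT, 4110 to 5350 CPM in CKO) and Ldha (3131 to 3639 CPM in WT, 3950 to 5220 CPM in CKO). The sum thus mainly describes the most abundant genes. Gapdh, named after its values were seen, gave this sum only 7.60 to 18.6 CPM per library. Near-identical copies of Gapdh were not sought, so this low value cannot be taken as its true level. At an unadjusted p under 0.05, 3 of the 13 were higher (Pkm, Eno1 and Ldha, named after their values were seen) and 1 lower, where 21.3% of all genes passed. Pkm, which encodes pyruvate kinase, had 1081, 1228 and 1456 CPM in the WT libraries and 1741, 2967 and 1729 CPM in the CKO libraries (log2 fold change 0.74, limma's adjusted p = 0.0802). It was called by DESeq2 (adjusted p = 0.0343) and by edgeR without a filter (adjusted p = 0.0235), but not by edgeR with its filter (TMM scaling, adjusted p = 0.0849). Eno1 (0.39) and Ldha (0.37) also had every CKO library above every WT library, with limma's adjusted p of 0.197 and 0.204. So did Tpi1 (0.20, limma's adjusted p = 0.445). Eno2 (-0.67, limma's adjusted p = 0.320) and Aldoc had every CKO library below every WT library. Tpi1 and Eno2 are named after their values were seen. Over all genes, 27.7% were separated in either direction. Pkm, Eno1 and Ldha have 8, 6 and 13 near-identical copies, so their reads are uncertain. The gene that fell past limma's adjusted threshold was Aldoc, the aldolase isozyme known from brain. It had 75.4, 71.3 and 27.9 CPM in the WT libraries and 11.0, 11.5 and 8.67 CPM in the CKO libraries (log2 fold change -2.26, limma's adjusted p = 0.00752). The call was lost without WT 1 and without WT 2 (limma's adjusted p of 0.0527 and 0.0559).

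Other cells in the dissections were read from their markers. Summed markers of macrophages and osteoclasts were at 107 to 122 CPM in WT and 188 to 205 CPM in CKO, with 1 of 8 called (Cd68) and C1qa at 0 to 1.69 CPM. Summed epidermal markers were at 29.6 to 55.8 CPM in WT and 207 to 217 CPM in CKO, through Sbsn and Perp. All 3 tested had a positive log2 fold change, and these 2 rose past limma's adjusted threshold. Krt1 and Krt15 stood at or below 0.845 CPM. Summed osteoblast markers overlapped, at 328 to 582 CPM in WT and 284 to 567 CPM in CKO. Singly, 4 of the 5 had a positive and 1 a negative log2 fold change, from -0.57 to 1.53 with a median of 0.94. Of these 5, 0 passed limma's adjusted threshold, and 1 was higher and 1 lower at an unadjusted p under 0.05. The part of these cells in the levels of the members was not tested. Hif1a itself had 19.6, 19.5 and 26.2 CPM in the WT libraries and 13.8, 13.7 and 15.6 CPM in the CKO libraries (log2 fold change -0.56, limma's adjusted p = 0.253).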

How the data were processed

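Total RNA was extracted from growth plate cartilage with TRIzol and made into stranded mRNA libraries. The deposited values are CPM per gene, and the processing notes name cutadapt 2.5, HISAT2 and featureCounts 1.6.3. The genome build and annotation are not given in the sources used here, and positions and lengths were taken from GENCODE M21 (GRCm38) by identifier. All values (100%, within 0.001 reads) were whole multiples of 1 read, so reads were recovered, 1153871 to 1454094 per library.

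Log2(CPM + 1) was fitted on genotype with limma 3.58.1 (R 4.3.3, trended variance) for the 12155 genes that averaged 1 CPM or more, and p-values were adjusted over all of them by Benjamini-Hochberg. Fold changes on this scale understate those of genes with few reads. Shares and totals were compared by exact permutation tests in scipy 1.17.1. Alternatives were a pseudocount of 0.1, no filter, a filter at 10 CPM, a replicate block, TMM scaling, the edgeR 4.0.16 quasi-likelihood test and DESeq2 1.42.0 on recovered reads, and each library left out. Once the data had been seen, further alternatives were added, namely edgeR without a filter, the length of the longest coding transcript, and both WT 3 and CKO 2 left out. The fits were tested on simulated data. Near-identical copies were sought with BLAST 2.17.0 at 90% identity over 300 bases.

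Members and lists were chosen with earlier results of these data known. Named are the 10 members, the genes of each list past the adjusted threshold or else the gene with the smallest p, the 3 closest profiles of each member with a mean of at least 20 CPM, Hnrnpk and Hif1a. Other genes are said to be named after their values were seen or serve as markers.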

Additional observations from a re-analysis of the deposited data

How the results depend on the processing

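The number of members past the adjusted threshold was 0 in each alternative except with both WT 3 and CKO 2 left out, where it was 1 (Pfkfb1). The replicate numbers are not known to pair the libraries. Same-numbered libraries had deviation correlations of 0.038, -0.131 and -0.103, and with a replicate block 0 members were called, and 385 genes in all against 703. Without WT 1, WT 2, CKO 1 or CKO 3, 212 to 258 genes were called, without WT 3 543, and without CKO 2 1298. Of 145 fold changes of single members under an alternative, 5 changed sign. The following ranges are over fits that dropped 1 library. The log2 fold change ran from -0.086 to 0.67 for Slc2a1, from -0.27 to 0.062 for Hk1, from 0.03 to 0.34 for Pfkl, from 0.05 to 0.47 for Pfkp and from -0.38 to 0.080 for Pfkfb4. The difference in share ran from -1.01 to 2.79 percentage points for Pfkp and from -4.91 to 5.90 for Pfkfb4, which was 1.88 on plain CPM. The hexokinase total ran from -0.34 to 0.039 (log2). Called genes numbered 0 to 1 among opposing and regulating genes (0 with the replicate block, 0 with DESeq2), 1 to 2 among branch enzymes (3 with edgeR without a filter, 3 with DESeq2), and 0 to 1 in lower glycolysis (2 with edgeR without a filter, 2 with DESeq2). With both WT 3 and CKO 2 left out these were 2, 6 and 4, with 2 other glucose transporters and 2410 genes in all. The causes were not tested. Of the members, 5 had a mean under 10 CPM, where the depth limits what could be detected.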
